A study of Mus musculus with 17 samples.

Results

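The 10 genes described here encode the neurofilament subunits (Nefl, Nefm, Nefh, Ina), microtubule-associated proteins (Map1a, Map1b, Map2, Map4, Mapt) and the microtubule-destabilizing stathmin Stmn2. They were taken by symbol from the deposited table of 48440 genes, and all 10 were among the 14144 genes tested, having a TPM (a length-corrected share of the library's transcripts, scaled to the same total in each library) of at least 1 in at least 8 libraries. The 17 libraries are of frontal cortex, each from 1 male C57BL/6J mouse at postnatal day 189. The Poly(I:C) group held 9 offspring of dams that had received Poly(I:C) at 20 mg/kg intraperitoneally at gestational day G12.5, and the saline group held 8 offspring of dams given the vehicle. Poly(I:C), a synthetic RNA duplex sensed as if it were viral, is given to pregnant rodents to model maternal immune activation. The labels name no transgene and no treatment of the offspring themselves. They count 11 dams but do not say which of the 17 animals are littermates, and the p-values below treat littermates as independent. The comparison asks whether transcripts of the axonal and dendritic cytoskeleton differ in the adult frontal cortex after prenatal exposure.

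Neurofilaments are the intermediate filaments of neurons, built from light, medium and heavy chains together with alpha-internexin, and they set the calibre of large myelinated axons. Microtubule-associated proteins bind and stabilize the microtubules of neurites: MAP2 is sorted to dendrites, tau (from Mapt) is enriched in axons, MAP1A and MAP1B are large proteins of mature and growing neurites, and MAP4 is found in neurons and in many non-neuronal cells. Stathmin-2 binds tubulin dimers, is abundant in neurons and is linked to axon growth and repair. In cortex, large projection neurons and parvalbumin interneurons are rich in neurofilament protein.

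Several facts of the libraries bear on all values. TPM sums to the same total in every library, so the depth of each library is unknown and no counting interval can be given. All 7 cortical excitatory markers were above 0 in every library, and their summed level ran from 2662 to 2980 TPM. The dissection was meant to leave out putamen and olfactory tissue. In Poly(I:C) replicate 7 the summed striatal projection neuron markers reached 426 TPM, against 254 to 339 TPM in the other 16 libraries, and the summed myelin markers reached 3277 TPM, against 1582 to 2270 TPM. In saline replicate 7 the summed olfactory bulb markers reached 115 TPM, against 31.2 to 40.5 TPM in the other 16. Isl1 of the striatal list and Eomes and Barhl2 of the olfactory list were listed at 0 in at least 1 library. Over all 17 libraries, all 11 tested striatal markers and 10 of 11 myelin markers were higher in the Poly(I:C) group. All 6 tested olfactory markers were lower there, and no marker of these lists passed the adjusted test. For the summed striatal markers, only Poly(I:C) replicates 7, 4 and 1 (426, 339 and 296 TPM) exceeded the saline maximum of 283 TPM. The main differences are also given without both replicates 7. Whether the marker imbalance remains without them was not tested. In bulk tissue, fewer cells of a type and less RNA per cell cannot be told apart.

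The RefSeq promoter table (GRCm38.p6) held an entry for 5 of the 10 genes. The bases before the start are shown for Ina, the only neurofilament subunit with an entry. They are also shown for Map1a, Map1b and Map2, microtubule genes whose pairs are counted below. Each run gives the 250 bases before the RefSeq start, 5′ to 3′ on the gene's strand: chr19:47014431-47014680 (plus) for Ina, chr2:121289352-121289601 (plus) for Map1a, chr13:99516603-99516852 (minus) for Map1b and chr1:66175079-66175328 (plus) for Map2. Capitals mark matches to a GC box (GGGCGG or its reverse complement CCGCCC, overlapping matches counted separately) or to a TATA box (TATAAA or TTTATA).
Ina: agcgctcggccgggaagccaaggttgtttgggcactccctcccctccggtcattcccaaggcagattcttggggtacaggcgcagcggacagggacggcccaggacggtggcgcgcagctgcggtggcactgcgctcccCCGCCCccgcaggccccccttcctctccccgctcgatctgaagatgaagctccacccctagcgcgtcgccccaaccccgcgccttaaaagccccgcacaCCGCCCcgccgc
Map1a: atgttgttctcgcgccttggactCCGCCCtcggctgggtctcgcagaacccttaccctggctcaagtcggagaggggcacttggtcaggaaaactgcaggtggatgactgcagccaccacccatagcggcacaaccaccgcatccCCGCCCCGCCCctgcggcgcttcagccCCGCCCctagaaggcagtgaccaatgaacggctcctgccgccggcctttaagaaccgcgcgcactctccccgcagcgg
Map1b: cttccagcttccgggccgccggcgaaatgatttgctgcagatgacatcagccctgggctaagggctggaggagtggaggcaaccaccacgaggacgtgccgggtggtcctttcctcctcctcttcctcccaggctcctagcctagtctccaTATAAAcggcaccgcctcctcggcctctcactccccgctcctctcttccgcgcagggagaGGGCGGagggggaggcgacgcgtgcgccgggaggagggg
Map2: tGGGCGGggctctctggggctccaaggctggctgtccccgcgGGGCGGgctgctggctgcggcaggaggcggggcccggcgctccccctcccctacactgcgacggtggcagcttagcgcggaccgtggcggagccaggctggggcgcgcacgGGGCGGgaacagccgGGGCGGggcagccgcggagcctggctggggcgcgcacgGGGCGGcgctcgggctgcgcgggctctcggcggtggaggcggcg
The GC box letters occur 5 times before Map2, 4 times before Map1a, 2 times before Ina and 1 time before Map1b, and 32.7% of 32817 RefSeq promoters of this length hold at least 1. The TATA letters occur only before Map1b among these 4, with the first base 99 bases before the start, and 12.4% of promoters hold them. GC content was 81.2% for Map2, 70.8% for Ina, 66.4% for Map1b and 66.0% for Map1a, against a median of 52.4% over all promoters. These matches describe the letters only. Map4 had 2 entries that are not printed, with a GC content of 74.0% and 43.6% and with 3 and 0 GC box matches. Nefl, Nefm, Nefh, Mapt and Stmn2 were not matched in the table.

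All 10 genes were well expressed, and part of their order held in every animal. TPM is corrected for transcript length, so levels can be compared between genes. Map2 was the highest at 646.7 TPM on average over the 17 libraries and ranked 111 among all tested genes. A group of 4 genes followed closely: Map1a at 287.9, Stmn2 at 285.6, Map4 at 261.2 and Mapt at 250.2 TPM. Map1b stood at 144.1, Nefl at 133.9, Ina at 116.0 and Nefm at 91.8 TPM, and Nefh was the lowest at 32.1 TPM, with rank 3932. Together the 10 took 0.225% of the TPM.

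The ranges of neighbours in this order did not overlap between Map2 and Map1a, between Mapt and Map1b, or between Nefm and Nefh. Map1a and Stmn2 had no fixed order over the 17 libraries, since Map1a was the higher in 12 of 17. Stmn2 was the higher in Poly(I:C) replicates 1, 3, 4, 5 and 9 and in no saline library. The 2 were close in saline replicate 2 (287.0 and 285.0 TPM), and this split by group was not tested. Map4 exceeded Mapt in 13 of 17, Map1b exceeded Nefl in 15 of 17 and Stmn2 exceeded Map4 in 16 of 17. Nefl exceeded Ina, and Ina exceeded Nefm, within every one of the 17 libraries, although their ranges across animals overlapped. The light chain, alpha-internexin, medium chain and heavy chain transcripts thus had the same order in each animal. Nefl shares an identical stretch with Nefm, and Ina with Nt5c2, as given below. How reads of these stretches bear on the order was not tested.

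**Figure D1:**
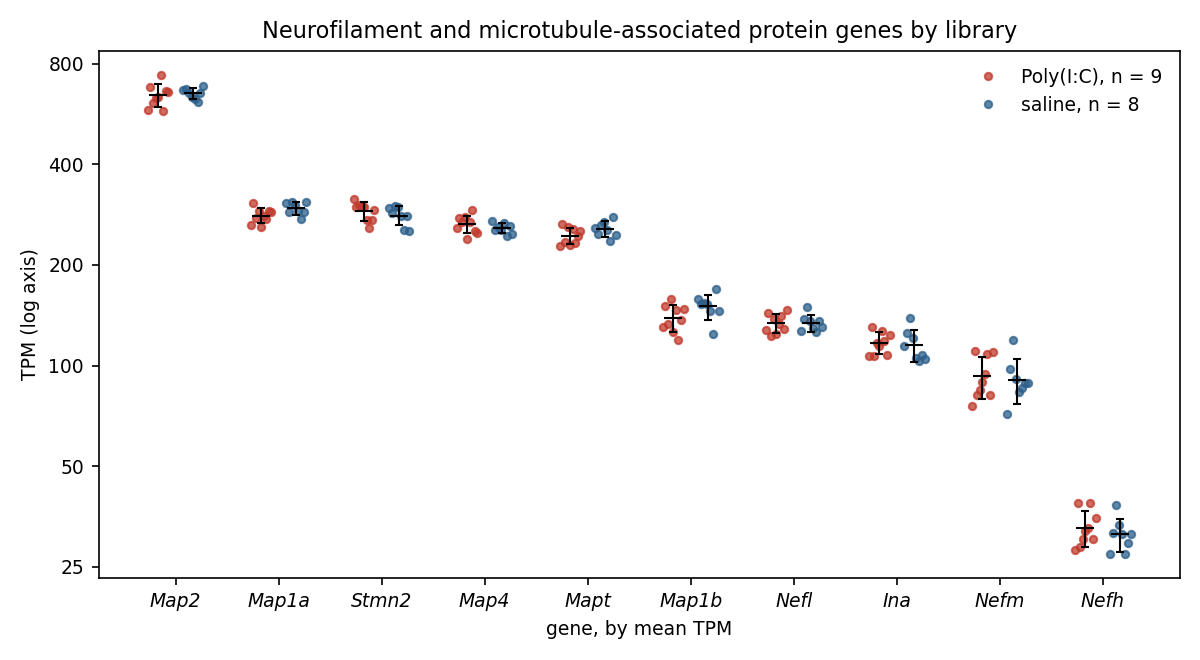
Level of each of the 10 genes in each library (vertical axis, TPM on a log scale), with 1 point per animal, the horizontal bar at the group mean and the error bars at 1 SD for the Poly(I:C) group (n = 9) and the saline group (n = 8). The 2 groups overlap for every gene, and the points of Nefm and Nefh spread more widely than those of Map1a, Map4 and Mapt.

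The genes differed in how much they varied between animals of the same group. Nefm had the widest spread, with a within-group SD of 0.207 on the log2(TPM + 1) scale, and 96.98% of the 4865 genes with a mean of at least 25 TPM had a lower one. Nefh followed with an SD of 0.161 (91.7% of those genes lower), Map1b with 0.131 (80.9%) and Ina with 0.130 (80.4%). The light chain Nefl, at 0.086 (38.8%), varied less than the other 3 neurofilament subunits. The narrowest spreads were those of Map1a at 0.070 (18.5%), Map4 at 0.073 (21.9%) and Mapt at 0.080 (30.3%), with Map2 at 0.089 and Stmn2 at 0.095 near the median of 0.094 for such genes. Nefm thus ran over a 1.67-fold range across the 17 animals, and Map1a over a 1.19-fold range.

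No neurofilament transcript differed detectably between the prenatal groups. The light chain gene Nefl (ENSMUSG00000022055.7, GRCm38 chromosome 14, 68083863-68089095, plus strand) ran from 123.0 through a median of 133.0 to 146.3 TPM in the Poly(I:C) group and from 126.1 through 132.9 to 149.2 TPM in the saline group. The medium chain gene Nefm (ENSMUSG00000022054.11, chromosome 14, 68082590-68124846, minus strand) ran from 75.8 through 89.1 to 110.9 TPM and from 71.4 through 88.6 to 119.2 TPM. The lowest and the highest Nefm value both came from saline animals, replicates 1 and 3, so the Poly(I:C) range lay inside the saline range. The heavy chain gene Nefh (ENSMUSG00000020396.8, chromosome 11, 4938754-4948064, minus strand), which encodes the long, heavily phosphorylated side arms, ran from 28.2 through 32.0 to 38.9 TPM and from 27.4 through 31.4 to 38.2 TPM. Alpha-internexin (Ina, ENSMUSG00000034336.3, chromosome 19, 47014698-47025327, plus strand) ran from 106.8 through 116.7 to 130.6 TPM and from 102.9 through 110.7 to 139.1 TPM. Saline replicate 3 held the highest Nefl, Nefm and Ina values, and Poly(I:C) replicate 7 the highest Nefh value.

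Group means of the subunits were close. Nefl stood at 133.9 ± 8.58 TPM (SD, n = 9) in the Poly(I:C) group and 134.0 ± 7.57 TPM (SD, n = 8) in the saline group. By limma over all tested genes its difference, Poly(I:C) minus saline on the log2(TPM + 1) scale, was -0.0022 ± 0.041 (SE) with a 95% interval of -0.088 to 0.084 and an adjusted p of 0.989. The difference was 0.035 ± 0.090 for Nefm (interval -0.15 to 0.22, adjusted p 0.922), 0.064 ± 0.072 for Nefh (-0.087 to 0.21, adjusted p 0.803) and 0.027 ± 0.059 for Ina (-0.096 to 0.15, adjusted p 0.911). In linear terms the intervals span a Poly(I:C) to saline ratio of 0.941 to 1.06 for Nefl but of 0.900 to 1.17 for Nefm, so the precision reached for the medium chain was lower. When both replicates 7 were left out the differences were -0.0087, 0.0030, 0.0225 and 0.0105 for Nefl, Nefm, Nefh and Ina.

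Among the microtubule-associated proteins, Map1a, Map1b and Mapt had lower means in the Poly(I:C) group, but none passed the adjusted test. Map1a (ENSMUSG00000027254.13, chromosome 2, 121289600-121310832, plus strand), which binds microtubules of mature dendrites and axons, ran from 259.3 through a median of 280.5 to 306.2 TPM in the Poly(I:C) group and from 273.5 through 296.1 to 309.2 TPM in the saline group. Its homologue Map1b (ENSMUSG00000052727.5, chromosome 13, 99421446-99516540, minus strand), prominent in growing axons, ran from 119.2 through 136.6 to 158.3 TPM and from 124.1 through 152.9 to 169.3 TPM. For both genes, 8 of 9 Poly(I:C) animals lay below the saline median, and the groups overlapped. The tau gene Mapt (ENSMUSG00000018411.17, chromosome 11, 104231390-104332090, plus strand) ran from 227.8 through 244.0 to 264.4 TPM and from 235.3 through 256.7 to 277.8 TPM, with 6 of 9 Poly(I:C) animals below the saline median. The dendritic Map2 (ENSMUSG00000015222.17, chromosome 1, 66175273-66442583, plus strand) ran from 578.1 through 636.3 to 740.9 TPM and from 614.4 through 655.1 to 683.8 TPM, so the saline range lay inside the Poly(I:C) range. Saline replicate 7 held the highest Map1b and Mapt values and Poly(I:C) replicate 7 the lowest Map1b and Map2 values.

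Map1a averaged 281.0 ± 14.8 TPM after Poly(I:C) (SD, n = 9) and 295.5 ± 12.8 TPM after saline (SD, n = 8), and its difference by limma was -0.073 ± 0.035 (SE, interval -0.15 to -0.00035), with an unadjusted p of 0.0490 and an adjusted p of 0.569. Map1b averaged 138.7 ± 12.9 TPM and 150.2 ± 12.9 TPM (SD, same n), a difference of -0.11 ± 0.059 (-0.24 to 0.0077, limma adjusted p 0.578). Mapt differed by -0.069 ± 0.038 (-0.15 to 0.011, adjusted p 0.609) and Map2 by -0.024 ± 0.042 (-0.11 to 0.063, adjusted p 0.881). On a linear scale the Poly(I:C) to saline ratio was 0.951 for Map1a, 0.923 for Map1b, 0.953 for Mapt and 0.984 for Map2. Leaving out both replicates 7, which stand apart in neighbouring-tissue markers, brought Map1b from -0.11 to -0.0632, and gave -0.0743 for Map1a, -0.0441 for Mapt and -0.0039 for Map2.

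Map4 and Stmn2 had slightly higher means in the Poly(I:C) group, and neither passed. Map4 (ENSMUSG00000032479.15, chromosome 9, 109931460-110083955, plus strand), the widely expressed member of the family, ran from 239.8 through 269.1 to 291.0 TPM and from 243.7 through 257.0 to 270.4 TPM, and both its lowest and its highest value came from Poly(I:C) animals, replicates 5 and 7. Its difference by limma was 0.039 ± 0.036 (SE, interval -0.036 to 0.11, adjusted p 0.753). Stmn2 (ENSMUSG00000027500.10, chromosome 3, 8509360-8561606, plus strand) ran from 257.1 through 297.1 to 315.8 TPM and from 253.2 through 282.9 to 300.1 TPM, with 6 of 9 Poly(I:C) animals above the saline median. Its difference was 0.044 ± 0.044 (-0.048 to 0.14, limma adjusted p 0.775). When both replicates 7 were left out the differences were 0.0251 for Map4 and 0.0644 for Stmn2. Map4 transcripts share stretches of up to 197 bases at 97% identity or more with transcripts of other genes, and how reads that match several genes bear on its value was not tested.

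Over the 10 genes, 0 passed an adjusted p of 0.05 by limma, and the same holds for 0.0% of all tested genes. At an unadjusted p under 0.05 there was 1 of 10, Map1a, beside 8.75% of all genes (7.85% lower and 0.898% higher), a share near the background. This count fell to 0 without any 1 of Poly(I:C) replicates 1, 3, 5, 6 and 7. It also fell to 0 without any 1 of saline replicates 1, 3, 4, 5 and 8. In these fits 951 to 1386 of the 14144 tested genes were under an unadjusted p of 0.05. Leaving out Poly(I:C) replicate 4 raised the count to 2, beside 1406 genes. It rose to 3 without Poly(I:C) replicate 2 (1390 genes) or saline replicate 6 (1710 genes). An exact Mann-Whitney test put 0 of the 10 under an unadjusted p of 0.05, beside 1132 of the 14144 genes. No gene of the 10 had groups that did not overlap, a property of 0.0283% of tested genes.

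The scaling shifts all genes together, and for Nefl and Map2 it set the sign of the difference, while the other 8 kept theirs. Of all tested genes, 71.0% were lower and 29.0% higher in the Poly(I:C) group, with a median difference of -0.035, whereas the 10 genes were evenly divided, 5 lower and 5 higher, with a median of 0.012. After median-of-ratios scaling, which brought the median of all genes to -0.0014, 50.9% of all genes were lower and 49.1% higher, and 7 of the 10 were higher with a median of 0.049. Under that scaling Nefl (0.035) and Map2 (0.014) turned from lower to higher, Map1a was at -0.036, Map1b at -0.078 and Mapt at -0.032, and Map4 alone of the 10 had an unadjusted p under 0.05 (0.077, unadjusted p 0.0175, limma adjusted p 0.602), beside 7.34% of all genes (3.87% higher and 3.46% lower). Poly(I:C) replicate 7 held the highest Map4 value under this scaling too (292.7 TPM), and the scaled difference was not tested without it.

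**Figure D2:**
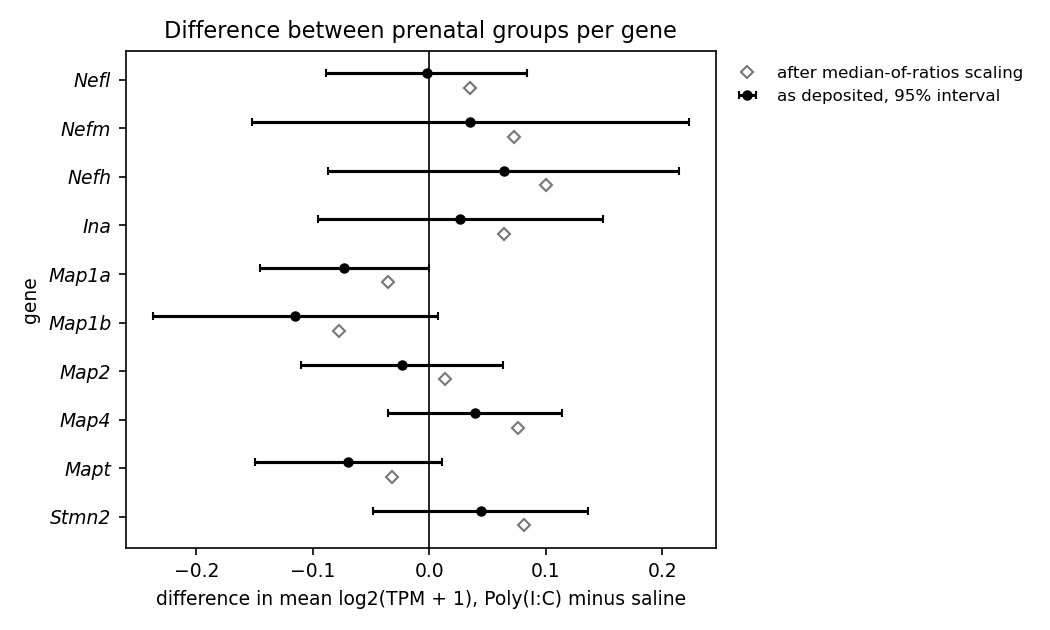
Difference between the prenatal groups for each gene (horizontal axis, mean log2(TPM + 1) in the Poly(I:C) group minus saline, n = 9 and n = 8), with filled points and 95% intervals from limma on TPM as deposited and open diamonds after median-of-ratios scaling. Every interval but that of Map1a, which ends at -0.00035, includes 0, and the diamonds lie to the right of the points.

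Ratios within a library do not depend on the scaling, and none of 6 passed the test between the groups. For the stoichiometry of the neurofilament transcripts, Nefm to Nefl was 0.692 ± 0.067 (SD, n = 9) against 0.674 ± 0.066 (SD, n = 8), with a log2 difference of 0.038 (interval -0.11 to 0.18, two-sided exact permutation p 0.586, adjusted over the 6 ratios 0.586). Nefh to Nefl was 0.245 ± 0.020 against 0.233 ± 0.015, a difference of 0.068 (-0.044 to 0.18, exact p 0.209), and Ina to Nefl was 0.873 ± 0.042 against 0.856 ± 0.055, a difference of 0.029 (-0.055 to 0.11, exact p 0.462). The balance of the homologues, Map1b to Map1a, was 0.493 ± 0.032 against 0.508 ± 0.041, a difference of -0.043 (-0.15 to 0.062, exact p 0.416), and it turned to 0.0109 without both replicates 7. Mapt to Map2 was 0.382 ± 0.020 against 0.394 ± 0.024, a difference of -0.046 (-0.13 to 0.040, exact p 0.268). It compares transcripts in bulk tissue and does not measure axons against dendrites. Map4 to Map2 was 0.415 ± 0.046 against 0.395 ± 0.018, a difference of 0.063 (-0.060 to 0.19, exact p 0.315). The adjusted p was 0.554 for the last 5. Transcript models of Nefl and Nefm share 1108 identical bases, and how reads of that stretch bear on the ratios to Nefl was not tested.

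Within the groups, several of the genes varied together between animals. With the group means removed, the 4 neurofilament transcripts were correlated in all 6 of their pairs over the 17 libraries, and Map1b was correlated with Mapt. In total 9 of 45 pairs had an adjusted permutation p under 0.05, comprising the 6 neurofilament pairs and 3 of 6 pairs among Map1a, Map1b, Map2 and Mapt. None of the 16 pairs between these 2 sets passed (r 0.10 to 0.57), nor did any of the 17 pairs with Map4 or Stmn2 (r -0.13 to 0.44). This division rests in part on 2 libraries. Without both replicates 7, over 15 libraries, 16 of 45 pairs passed: the 6 neurofilament pairs, 3 of the 6 among Map1a, Map1b, Map2 and Mapt, 5 of the 16 between the sets and 2 with Map4. The pairs between the sets then ran from r 0.33 to 0.70, with Nefl and Mapt the highest (permutation p 0.00435, adjusted 0.0196). The difference in r between these kinds of pair was not tested.

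The closest pair was Nefm with Nefh, with Pearson's r 0.915 and Spearman's rho 0.897 (permutation p 1e-05, the smallest that 100000 resamples can give, and 2e-05; adjusted over 45 pairs 0.000225 and 0.00045). It was 0.960 within the Poly(I:C) group and 0.862 within the saline group, and it was 0.860 without saline replicate 3 and Poly(I:C) replicate 2, the 2 libraries farthest from the Nefm median. Among all tested genes Nefm was the closest to Nefh, and Nefh was second to Nefm. Nefl with Nefm had r 0.860 and rho 0.811 (permutation p 2e-05 and 0.00015, adjusted 0.0003 and 0.00169), falling to 0.769 without the 2 farthest libraries. The annotated span of Nefm covers Nefl on the opposite strand, and transcript models of the 2 genes share 1108 identical bases. The kit was strand-specific per the labels, but the strand setting of the counting is not given in the sources used here, and without it reads from the shared stretch cannot be told apart. The same limit holds for Ina, which shares 456 identical bases with Nt5c2 on the opposite strand, and for Map1a, which shares 272 with Ppip5k1.

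The pairs that do not join these overlapping genes were also high. Nefl with Nefh had r 0.818 and rho 0.826 (permutation p 0.00011 and 0.00013, adjusted 0.00124 and 0.00169), and Nefl with Ina had r 0.801 and rho 0.773 (p 0.00014 and 0.00046, adjusted 0.00126 and 0.00414). Nefm with Ina had r 0.762 and rho 0.711 (p 0.00029 and 0.00175, adjusted 0.00218 and 0.0113), and Nefh with Ina had r 0.752 and rho 0.725 (p 0.00049 and 0.0013, adjusted 0.00315 and 0.00975). Without the 2 farthest libraries the 4 values were 0.772, 0.725, 0.575 and 0.780. Many genes outside the set lay closer to these members: among all tested genes Nefh ranked 67 for Nefl, and Nefl ranked 24 for Nefh. Ina ranked 94 for Nefl, 78 for Nefm and 80 for Nefh. For Ina, Nefl ranked 67, Nefm 141 and Nefh 171. After median-of-ratios scaling the 6 neurofilament pairs ran from 0.720 to 0.912, and without both replicates 7 from 0.794 to 0.915. Nefh on chromosome 11 and Ina on chromosome 19 lie apart from the Nefl and Nefm locus on chromosome 14.

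Map1b and Mapt formed the other close pair, with r 0.885 and rho 0.936 (permutation p 1e-05 for both, the smallest possible, adjusted 0.000225 and 0.00045). The correlation was 0.909 within the Poly(I:C) group, 0.855 within the saline group, 0.887 when saline replicate 6 and Poly(I:C) replicate 7 were left out, and 0.766 after median-of-ratios scaling (adjusted p 0.00243). Map1a with Mapt (r 0.670, rho 0.534, permutation p 0.00368 and 0.0283, adjusted 0.0207 and 0.0849) and Map1a with Map1b (r 0.627, rho 0.561, p 0.00684 and 0.0195, adjusted 0.0342 and 0.0794) were weaker. Within the Poly(I:C) group these were 0.877 and 0.728, and within the saline group 0.363 and 0.487. Without both replicates 7 they were 0.807 and 0.784. Without the 2 libraries farthest from the Map1a median they were 0.529 and 0.564. After median-of-ratios scaling they fell to 0.438 and 0.306 (adjusted p 0.356 and 0.573), so they depend on the scaling. The Map1a and Map1b promoters printed above differ in the TATA letters, which occur before Map1b only, and in the GC box letters (4 times before Map1a, 1 time before Map1b). Whether such letters bear on the correlations was not tested, and Mapt had no promoter entry.

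**Figure D3:**
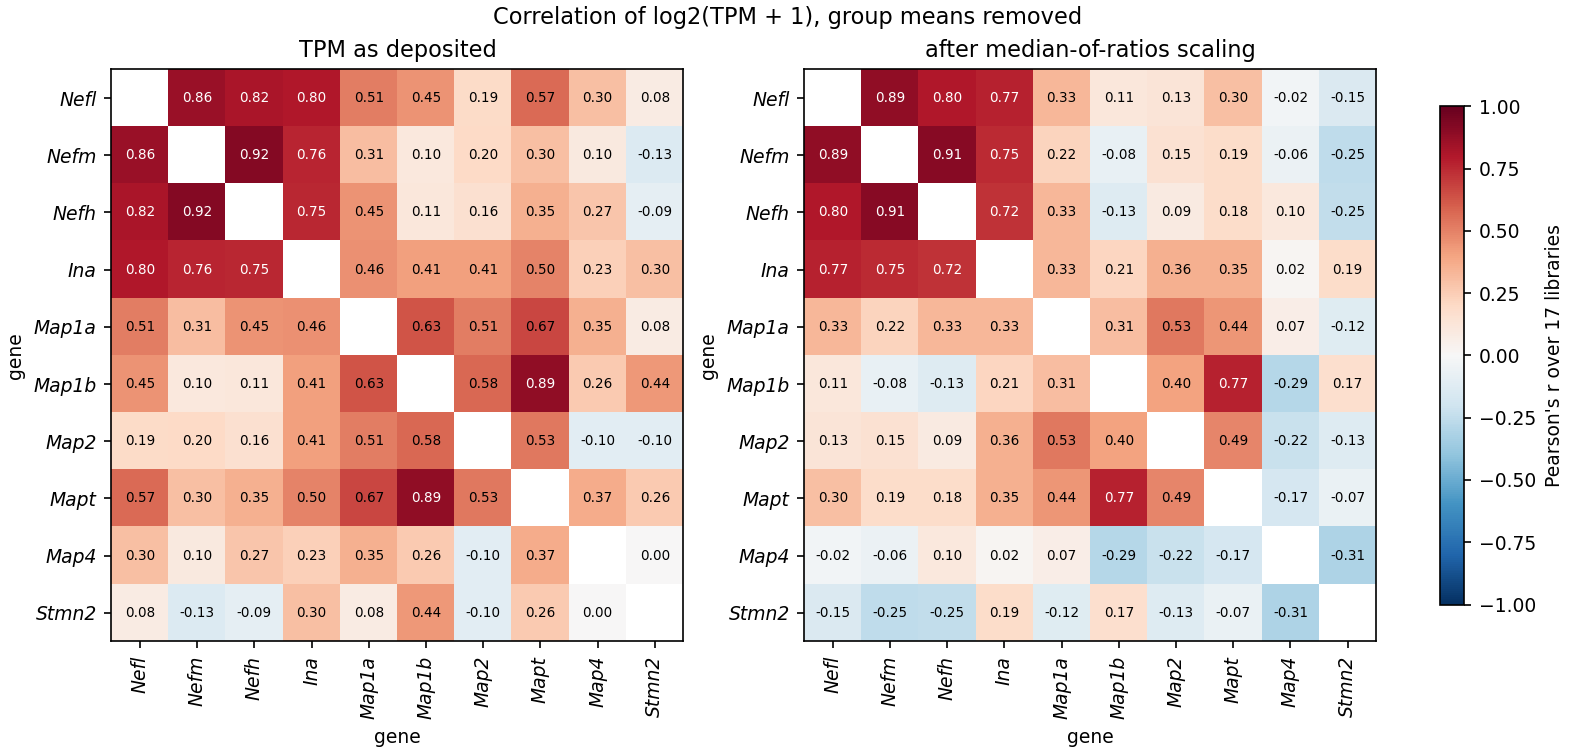
Pearson's r of log2(TPM + 1) over the 17 libraries with group means removed for every pair of the 10 genes (both axes), on TPM as deposited (left) and after median-of-ratios scaling (right), colour giving r from -1 to 1. The block of Nefl, Nefm, Nefh and Ina keeps r of 0.72 or more under both scalings, and Map1b with Mapt is the other pair that keeps its call.

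**Figure D4:**
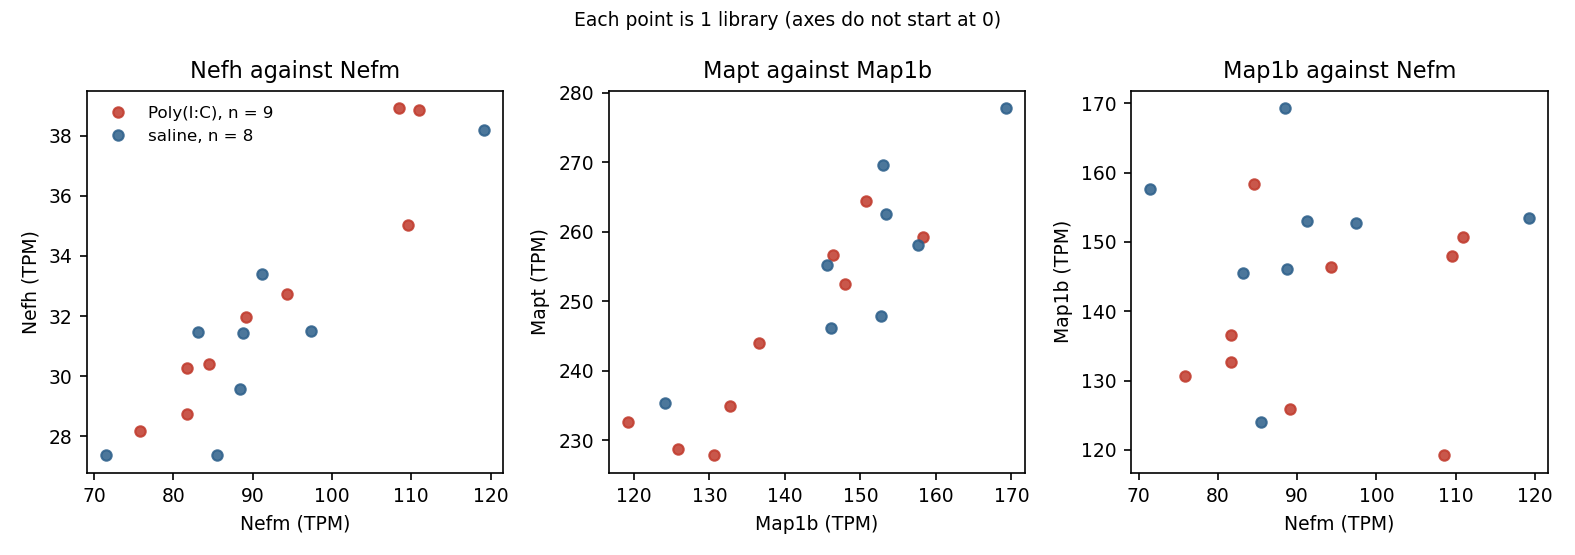
TPM of pairs of genes in each library, 1 point per animal, coloured by prenatal group (n = 9 and n = 8), with axes that do not start at 0. Nefh follows Nefm and Mapt follows Map1b within both groups. Map1b against Nefm has r 0.10 with group means removed (0.33 without both replicates 7). It is the lowest of the 16 between-set pairs, which reach 0.57 (0.70 without both replicates 7).

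Levels of cell type markers moved with Map1b and Mapt. The mean log2 level of the 7 cortical excitatory markers was correlated with Map1b (r 0.860, rho 0.836, permutation p 3e-05 and 9e-05, adjusted over 90 relations 0.00225 and 0.00585) and with Mapt (r 0.810, rho 0.824, p 5e-05 and 0.00013, adjusted 0.00225 and 0.00585). After median-of-ratios scaling these values were 0.523 and 0.549, and without saline replicate 6 and Poly(I:C) replicate 7 they were 0.730 and 0.753. The mean log2 level of the parvalbumin interneuron list, which also holds genes of other inhibitory neurons, was correlated with Nefl (r 0.741, rho 0.757, p 0.0007 and 0.00075, adjusted 0.00913 and 0.0225, and 0.742 without Poly(I:C) replicates 7 and 5). The part of these marker levels in the correlations among the 10 genes was not tested. The summed excitatory markers ran from 2662 through 2868 to 2980 TPM in the Poly(I:C) group and from 2688 through 2895 to 2931 TPM in the saline group.

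Outside the set, the genes most like each member were found by r over the 17 libraries among all tested genes, and they carry no p because they were chosen from all. Map1b had the closest match of the 10, to the sodium channel gene Scn2a (0.960), followed by the imprinted gene Mest (0.950) and the kinase anchor gene Akap11 (0.950). Nefm was most like the cyclin gene Ccng1 (0.940), Nat8f3 (0.901) and the cadherin gene Cdh12 (0.894), and Nefh most like the kinase gene Mapk6 (0.910), Ntn5 (0.906) and Sgpp2 (0.897). Nefl was most like Zfp91 (0.923), Trim37 (0.912) and Laptm4b (0.906), and Ina most like Paqr9 (0.918), Tnfrsf21 (0.916) and Wipf2 (0.911). Mapt was most like the endocytic adaptor gene Snap91 (0.933), Zyg11b (0.932) and Naa35 (0.921), whereas Map1b ranked 25 among all genes for Mapt. The other members had looser matches: Map4 to Ppp1r14a (0.894), 2310022B05Rik (0.872) and Rims2 (0.861), Map1a to Eif4g3 (0.866) and Atic (0.827), Stmn2 to Syngr3 (0.861), Dad1 (0.857) and Minpp1 (0.834), and Map2 to Cbx6 (0.835), Xkr6 (0.817) and Fndc3a (0.791).

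The other genes of the neuronal cytoskeleton were followed in 7 lists of 111 genes, of which 104 were tested. None passed an adjusted p of 0.05 by limma. At an unadjusted p under 0.05, 14 were lower and 0 higher in the Poly(I:C) group, beside 7.85% and 0.898% of all genes, and 87 of 104 were lower, beside 71.0%. Without both replicates 7 these counts fell to 6 lower and 1 higher at an unadjusted p under 0.05, beside 4.91% and 0.884% of all genes, and 76 of 104 were lower, beside 66.6%. The axon growth and intermediate filament lists below stayed mostly lower after median-of-ratios scaling.

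The list with the lowest median holds 11 genes known for axon growth and Tardbp, which encodes an RNA-binding protein. All 12 were lower in the Poly(I:C) group, 5 at an unadjusted p under 0.05, with a median difference of -0.093 (11 of 12 lower and a median of -0.056 after median-of-ratios scaling). Without both replicates 7 all 12 were lower, 2 at an unadjusted p under 0.05, with a median of -0.067. Tardbp was at -0.076 (limma adjusted p 0.683). Stmn2, which is not in this list, was at 0.044. Marcksl1, a membrane-bound actin regulator, averaged 35.9 ± 3.39 TPM after Poly(I:C) (SD, n = 9) and 41.0 ± 3.49 TPM after saline (SD, n = 8), a difference of -0.19 ± 0.060 (SE, limma adjusted p 0.486) that came to -0.12 without both replicates 7. Basp1, a growth cone membrane protein, averaged 435.2 ± 19.2 TPM and 464.4 ± 16.6 TPM (SD, same n), a difference of -0.094 ± 0.030 (limma adjusted p 0.486), with 8 of 9 animals below the saline median. Its difference was -0.071 without both replicates 7. The other 3, Dpysl3 (-0.23), Marcks (-0.098) and the neuronal tubulin gene Tubb3 (-0.082), were named after their values were seen.

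Of 12 other intermediate filament and linker genes, 11 were lower (9 after median-of-ratios scaling), 3 at an unadjusted p under 0.05, with a median of -0.066. Without both replicates 7 the median was -0.045, beside -0.025 for all tested genes. Synm was then at -0.12, Lmna at -0.086 and Macf1 at -0.044. The intermediate filament protein gene Synm averaged 8.99 ± 0.546 TPM after Poly(I:C) (SD, n = 9) and 9.97 ± 0.415 TPM after saline (SD, n = 8), a difference of -0.14 ± 0.042 (limma adjusted p 0.486), and all 9 Poly(I:C) animals lay below the saline median. The lamin gene Lmna was at 28.5 and 31.2 TPM (-0.13, adjusted p 0.564), the most abundant gene Macf1, a linker of actin and microtubules, at 81.4 and 85.8 TPM (-0.078), and Vim, named after its values were seen, at -0.15.

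The medians of the microtubule lists lay closer to that of all genes. Of 17 other structural microtubule-associated proteins, 14 were lower with a median of -0.025, and 11 were higher after median-of-ratios scaling. Dclk2, a doublecortin-like kinase, was at 27.9 and 30.2 TPM (-0.11), Map6d1 at 35.6 and 33.5 TPM (0.088), and Tppp, the most abundant, at 366.8 and 371.9 TPM (-0.021). Without both replicates 7, Dclk2 was at -0.070, Map6d1 at 0.071 and Tppp at 0.0067. Of 18 end-binding and minus-end proteins, 15 were lower with a median of -0.033, Nav1 being at -0.14, Slain1 at 0.12 and the most abundant, Clip3, at 836.5 and 853.4 TPM (-0.030). These 3 were at -0.098, 0.12 and -0.010 without both replicates 7. All 8 stathmins and severing enzymes tested were lower with a median of -0.043 (5 after median-of-ratios scaling), among them the katanin subunit Katna1 (-0.14). The most abundant, Stmn1, counts as lower only by its log2 difference of -0.0005, since its mean TPM was 1215 after Poly(I:C) and 1213 after saline, so its direction is not settled.

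Of 26 kinases and phosphatases that act on neurofilaments, tau and microtubule-associated proteins, 17 were lower with a median of -0.014, and 18 were higher after median-of-ratios scaling. The neuronal JNK gene Mapk10 was at 193.0 and 205.1 TPM (-0.088), the ERK gene Mapk3 at 163.6 and 177.3 TPM (-0.12) and the phosphatase scaffold Ppp2r1a, the most abundant, at 323.6 and 318.7 TPM (0.020). Of 11 axon initial segment and node partners, 10 were lower with a median of -0.046 (6 after median-of-ratios scaling). The spectrin gene Sptbn1 averaged 165.1 ± 6.51 TPM after Poly(I:C) (SD, n = 9) and 175.3 ± 6.04 TPM after saline (SD, n = 8), a difference of -0.087 ± 0.029 (limma adjusted p 0.486), Cntn1 was at -0.097 and the most abundant, Sptan1, at 574.8 and 604.2 TPM (-0.075). Without both replicates 7, Mapk10 was at -0.073, Mapk3 at -0.083 and Ppp2r1a at 0.031. Sptbn1 was then at -0.073, Cntn1 at -0.064 and Sptan1 at -0.048.

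**Figure D5:**
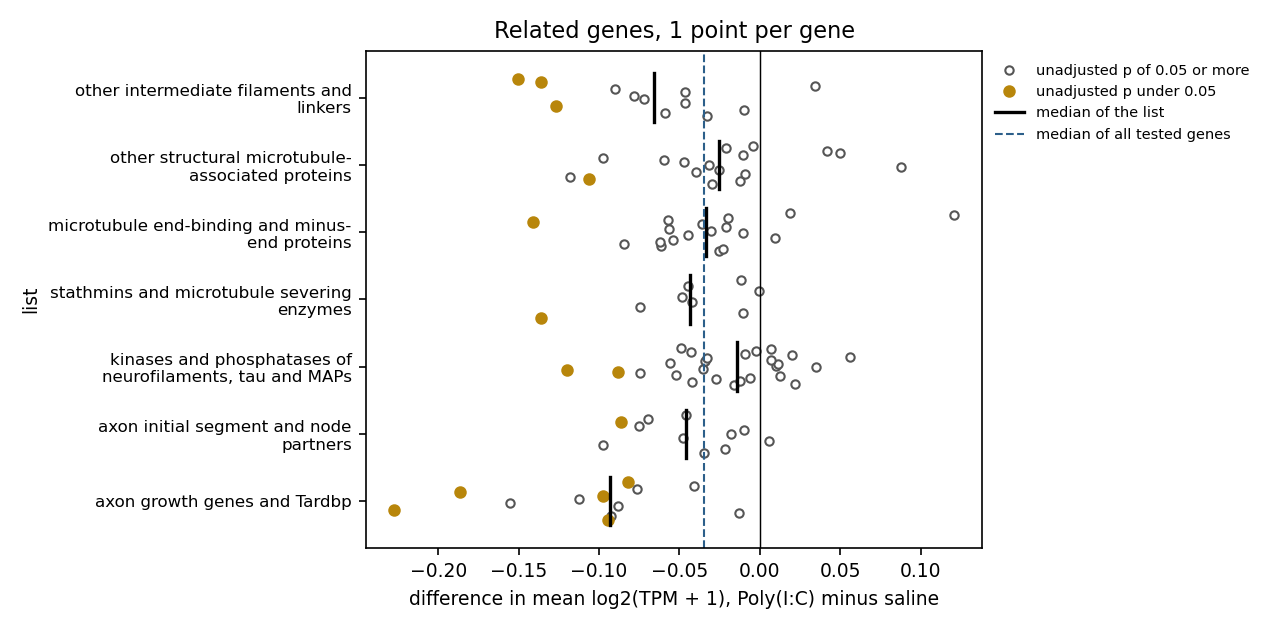
Difference between the prenatal groups for each tested gene of the 7 related lists (horizontal axis, mean log2(TPM + 1) in the Poly(I:C) group minus saline), with filled points for an unadjusted limma p under 0.05, black bars at list medians and the dashed line at the median of all tested genes (-0.035). All 12 genes of the list of axon growth genes and Tardbp lie left of 0 with a median of -0.093, and the medians of the microtubule and enzyme lists lie between -0.043 and -0.014.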

How the data were processed

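Polyadenylated RNA was sequenced from strand-specific libraries of frontal cortex, per the labels' protocols. The authors deposited TPM values per gene for 17 libraries. The submitters' processing notes name RSEM 1.2.31, STAR 2.5.1b, Trim Galore 0.4.0 and build mm10. The sources used here do not give the annotation release, the strand setting or any filter. Of 48440 identifiers, 48058 matched a symbol. Coordinates came from GENCODE M21 (GRCm38), and shared stretches were searched with BLAST 2.17.0 (at least 100 bases at 97% identity).

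Groups came from the labels and columns were matched by name, leaving 0 columns unused. No 2 libraries were identical. The 14144 genes that reached 1 TPM in 8 or more libraries entered a two-sided limma test (version 3.58.1, R 4.3.3, eBayes with trend) of log2(TPM + 1), and p-values were adjusted over all of them by Benjamini-Hochberg. The log scale understates differences of low genes. Ratios were tested over all 24310 splits and correlations with 100000 permutations, in Python 3.11.15. The code was tested on simulated data. Alternatives were pseudocounts of 0.1 and 0.5, no filter or a minimum TPM of 5, 3 scalings, robust eBayes, array weights, an exact Mann-Whitney test, a replicate block and left-out libraries. The marker correlations, Spearman counts, correlations and related lists without both replicates 7 and the fit of replicates 1 to 8 without a block were added after seeing the data. The 10 genes and all lists were chosen with earlier results of these data known. Named related genes are, per list, the 2 with the smallest p and the most abundant, and per member the 3 most correlated genes, of which 2 genes in all are not reported here.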

Additional observations from a re-analysis of the deposited data

Results flagged for a closer look

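Each group was checked for a library whose gap to its nearest neighbour was large for the group's range, over 90 sets of values. Chance flags about 1 in 20 such sets, and 5 were found. None concerned any of the 10 genes or their 6 ratios. Synm in saline replicate 6 was the lowest of its group at 9.05 TPM, the next being 9.88. Dclk2 in saline replicate 7 was the highest of its group at 36.05 TPM, the next being 31.25. The summed striatal projection neuron markers in Poly(I:C) replicate 7 were 426.44 TPM (next 338.88) and its summed myelin markers 3277.26 TPM (next 2242.27). The summed olfactory bulb markers in saline replicate 7 were 115.1 TPM (next 40.5).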

How the results depend on the processing

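None of the 10 genes passed an adjusted p of 0.05 under any of 30 alternatives. The count under an unadjusted p of 0.05 was 1 as reported, beside 1237 of the 14144 tested genes. It was 3 with upper-quartile scaling (1330 genes) and 2 with array weights (1327 genes). The Mann-Whitney test (1132 genes), the replicate block (1181) and leaving out both replicates 7 (819) gave 0. The count ran from 0 to 3 when each library was left out in turn, beside 843 to 1710 genes. Nefl turned positive with quantile (0.0222), median-of-ratios (0.035) and upper-quartile (0.0017) scaling and ran from -0.0185 to 0.0201 over left-out libraries. It was 0.0061, 0.0127, 0.0103 and 0.0050 without Poly(I:C) replicates 1, 3, 5 and 8, and 0.0041, 0.0201, 0.0015 and 0.0006 without saline replicates 2, 3, 4 and 7. Map2 turned to 0.0138 with median-of-ratios scaling, and Nefm to -0.0111 without saline replicate 1 (range over left-out libraries -0.0111 to 0.0932). The other 7 genes kept their sign in all 30, of which the filters and robust eBayes cannot change a difference. Over left-out libraries Ina ran from 0.0051 to 0.0668, Nefh from 0.0328 to 0.105, Map4 from 0.0219 to 0.0566, Stmn2 from 0.0232 to 0.0653, Map2 from -0.0498 to -0.0051 and Map1b from -0.1534 to -0.0884. Ina to Nefl turned to -0.0066 as a difference of medians, and Map1b to Map1a to 0.0109 without both replicates 7. No ratio passed under any alternative. Replicate numbers did not pair the samples: same-numbered libraries correlated at -0.22 to 0.082, and 1 of 8 matched its own number best. With the replicate block Map1a was at -0.0774, and 2 genes of the whole table passed, against 0. The number of correlated pairs was 9 as reported, 7 with median-of-ratios scaling, 7 by Spearman's rho and 16 without both replicates 7. Library depth cannot be read from TPM, so its limits could not be given.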

Other observations

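Map4 was correlated with the myelin, striatal and parvalbumin marker lists, but not past the adjustment with the astrocyte (r 0.33, permutation p 0.195), microglia (r -0.26, p 0.306) or endothelial list (r -0.31, p 0.229). This was examined after seeing the data, over 90 relations of 10 genes with 9 marker lists in 17 libraries with group means removed. Map4 was correlated with the myelin list at r 0.788 (rho 0.679, permutation p 0.00013 and 0.00315, adjusted 0.0039 and 0.0508), and the value was 0.764 after median-of-ratios scaling. It fell to 0.565 without Poly(I:C) replicates 7 and 5, the libraries with the highest and lowest summed myelin markers. With the striatal list Map4 had r 0.731 (rho 0.647, permutation p 0.00035 and 0.00639, adjusted 0.0063 and 0.0639) and 0.577 without Poly(I:C) replicates 7 and 4. With the parvalbumin list, which shares Tac1 with the striatal list, it had r 0.739 (rho 0.620, permutation p 0.00071 and 0.00947, adjusted 0.00913 and 0.0775) and 0.472 without Poly(I:C) replicates 7 and 5.

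Other relations that passed by r joined Map1b to the deep layer list (r 0.780, rho 0.635, permutation p 0.00028 and 0.00717, adjusted 0.0063 and 0.0645, and 0.708 without saline replicate 7 and Poly(I:C) replicate 5), Map1a to the excitatory list (r 0.725, rho 0.645, p 0.00083 and 0.00601, adjusted 0.00934 and 0.0639, and 0.672 without saline replicate 6 and Poly(I:C) replicate 7) and Nefh to the parvalbumin list (r 0.680, rho 0.679, p 0.00244 and 0.00339, adjusted 0.0244 and 0.0508, and 0.728 without Poly(I:C) replicates 7 and 5). By rho these 3, like those of Map4, did not pass the adjustment.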
